A study of Mus musculus with 34 samples.

Results

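Hepatocellular carcinomas (HCC) that arose in mice exposed to high-LET radiation were compared with tumor-free livers of mice exposed to the same class of radiation, so that irradiated liver, and not untreated liver, was the baseline. The arrays were taken by their labels for radiation and pathology: 7 high-LET HCC and 10 high-LET non-HCC livers, 17 of the 34 arrays of the series. RNA from tissue of male C3H/HeNCrl mice, 1 array per mouse, was hybridized to Illumina mouse BeadChips. The remaining 17 arrays, 4 spontaneous and 3 low-LET HCC with 6 sham-irradiated and 4 low-LET livers, entered the fit to estimate the spread and served for contrasts with other tumors.

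The 7 HCC came from mice given a single whole-body exposure to 0.1 Gy (HCC 1), 0.2 Gy (HCC 2, 3 and 5), 0.4 Gy (HCC 4) or 1 Gy (HCC 6 and 7). The 10 livers, numbered 1 to 10, all came from mice given 1 Gy. The study used accelerated iron and silicon ions. Its livers were of the iron type, the ion of the 0.2 Gy tumors could not be settled from the sources used here, and the sample labels name no ion. No test here compares ions, and tumor status, dose and ion cannot be fully told apart in this set. Each tumor was a separate animal, every animal was of 1 sex and 1 strain, and the RNA was of whole tissue. A lower signal can therefore come from fewer cells of a type or from less RNA per cell, which cannot be told apart.

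Linear energy transfer (LET) describes how densely a particle deposits energy along its track, and heavy ions deposit it far more densely than γ-rays. The mouse liver transcribes a set of genes in a sex-biased manner. Pulses of growth hormone in males activate the transcription factor STAT5 in hepatocytes, which keeps male-biased genes such as major urinary proteins on and female-biased cytochromes P450 off. Hepatocytes also make bile acids, most plasma proteins and the enzymes of drug metabolism, and liver tumors commonly lose parts of this program while they express fetal or secreted tumor markers.

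Signals below are on the log2 scale after background correction and quantile normalization. They ran between 5.65 at the floor and 15.26 at the ceiling of the scale. A gene close to the floor or to the ceiling shows a compressed difference. The median background-laden intensity of an array was 93.1 to 127 in HCC and 93.6 to 124 in livers, and 21466 to 24284 probes lay above background in HCC against 20377 to 23829 in livers. Correlations between arrays were 0.927 to 0.989 among HCC, 0.987 to 0.995 among livers and 0.915 to 0.984 between HCC and livers. Of 10 hepatocyte markers 8 were above background on all 17 arrays. The probe for Fgb was above it in 4 HCC and 5 livers, and that for Tat in 0 HCC and 3 livers. None of the 10 was called different, with a mean level of 11.39 to 11.87 in HCC and 11.72 to 11.98 in livers. Apoa1, Trf and Ahsg read 14.70 to 15.26 over the 17 arrays, near the ceiling, where a difference can be hidden. The probe for albumin itself read low in both, at 6.30 to 7.70 in HCC and 6.39 to 7.50 in livers.

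A probe was called different when limma gave a Benjamini-Hochberg adjusted p under 0.1 over 45219 probes and the fold exceeded 1.3. By this rule 3653 probes (8.08%) differed between HCC and livers, 1818 of them higher in HCC and 1835 lower. At an unadjusted p under 0.05 there were 10210. Counting each gene by its brightest probe, 2246 of 19047 genes (11.8%) differed, with 1074 higher (5.64%) and 1172 lower (6.15%). The counts of each gene and marker list below stand against these shares over all genes. The balance of directions depended on the scaling. When arrays were scaled to a common median and not quantile normalized, 2294 probes were called, 1617 higher and 677 lower, so that the share of higher calls was 70.5% against 49.8%. The number of arrays limits the precision.

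For 399 of the 2246 called genes, every one of the 7 HCC lay outside the range of the 10 livers on the side of the change, 165 above and 234 below. Over all genes 437 (2.29%) had groups that did not overlap. The 12 largest rises and 12 largest falls of this kind were all called under each of 26 alternative settings, with an adjusted p of 0.0162 in the least favorable case.

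The largest of these rises was in Ier3, an immediate early gene that responds to stress and growth factors. Its signal was 11.60 in the 0.1 Gy HCC, 11.86, 13.11 and 9.34 in the 0.2 Gy HCC, 12.31 in the 0.4 Gy HCC and 8.77 and 7.96 in the 1 Gy HCC, against 6.84 to 7.51 (median 7.26) in livers. All 7 HCC were above all livers, yet the tumors spanned more than 5 units among themselves. The difference of 3.49 ± 0.47 (log2, SE, n = 7 and 10) was an 11.2-fold rise with a limma adjusted p of 7.72e-06. Within the 3 shared BeadChips, which held HCC 1, HCC 4 and HCC 2, the difference was 4.67, 5.05 and 4.46. HCC 3, 5, 6 and 7 shared no BeadChip with a high-LET liver. Tgfbr2, a receptor for the growth-inhibitory cytokine TGF-β, rose by 2.31 ± 0.27, with 11.59 at 0.1 Gy, 11.88, 11.17 and 9.43 at 0.2 Gy, 11.33 at 0.4 Gy and 9.84 and 9.08 at 1 Gy in HCC against 7.84 to 8.49 in livers. Slc16a5, of the monocarboxylate transporter family, rose by 2.48 ± 0.29, at 7.82 to 10.47 in HCC and 6.39 to 7.12 in livers.

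The most even rise among these genes was that of Vcam1, an adhesion molecule that binds leukocytes. HCC read 9.13 at 0.1 Gy, 9.67, 9.46 and 8.76 at 0.2 Gy, 10.21 at 0.4 Gy and 8.60 and 8.82 at 1 Gy, and livers 7.05 to 7.80 (median 7.23). The rise of 1.95 ± 0.18 had an adjusted p of 2.05e-08. Lgmn, a lysosomal cysteine protease, behaved in a similar way, at 10.75 to 12.31 in HCC and 9.05 to 9.68 in livers, a rise of 1.94 ± 0.24. Tagln2, an actin-binding protein, rose by 2.16 ± 0.30 and Uap1l1 by 2.12 ± 0.30. In both the lowest HCC lay just above the highest liver, at 8.682 against 8.676 for Tagln2 and at 7.86 against 7.68 for Uap1l1. Tnfsfm13 rose by 2.01 ± 0.32. Lyz2, lysozyme of myeloid cells, rose by 2.12 ± 0.38, Lgals3, a galectin of macrophages and tumor cells, by 2.03 ± 0.35, and Fcgr3, an immunoglobulin receptor of myeloid cells, by 1.83 ± 0.32. In these 3 genes HCC 3 stood far above the other 6 HCC.

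Mup21, a major urinary protein that carries pheromones, fell to 8.47 at 0.1 Gy, 8.65, 8.18 and 8.76 at 0.2 Gy, 7.36 at 0.4 Gy and 11.64 and 11.11 at 1 Gy in HCC, against 14.43 to 14.86 (median 14.69) in livers. The difference was -5.50 ± 0.39 with an adjusted p of 9.60e-11. Hsd3b5, a male-specific steroid dehydrogenase, differed by -5.14 ± 0.57, with 8.95 at 0.1 Gy, 6.43, 6.01 and 6.28 at 0.2 Gy, 5.95 at 0.4 Gy and 11.43 and 10.63 at 1 Gy in HCC against 12.92 to 13.34 in livers. In both genes the livers lay within less than 0.5 units of each other and the 1 Gy HCC lay between the other HCC and the livers. Cyp4a12a, a fatty acid hydroxylase, differed by -4.80 ± 0.67 and Mup6 by -4.70 ± 0.64. Mup20, the pheromone darcin, differed by -3.83 ± 0.36 and Mup5 by -2.89 ± 0.32. Probes for major urinary proteins, and for the Cyp2b and Cyp4a cytochromes, can bind transcripts of near-identical relatives, so the single member is uncertain.

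Elovl3, an elongase of very long chain fatty acids, fell to the floor of the scale or near it in every tumor. It read 5.98 at 0.1 Gy, 5.90, 5.96 and 5.93 at 0.2 Gy, 5.93 at 0.4 Gy and 6.36 and 6.33 at 1 Gy in HCC, against 9.13 to 10.78 (median 10.04) in livers. The difference was -3.91 ± 0.26 (adjusted p = 3.44e-11), and its SD was 0.20 in HCC and 0.51 in livers. Only 2 of the 7 HCC were above background, so the size of the fall and the small SD in HCC are set by the floor of the scale. Cyp8b1, the sterol 12α-hydroxylase of bile acid synthesis, differed by -3.42 ± 0.51, Cyp7b1, the oxysterol 7α-hydroxylase, by -3.26 ± 0.58, Aox3, an aldehyde oxidase, by -2.94 ± 0.48, Susd4, a complement regulator, by -2.72 ± 0.41, and Ces3b, a carboxylesterase, by -2.60 ± 0.42.

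**Figure D1:**
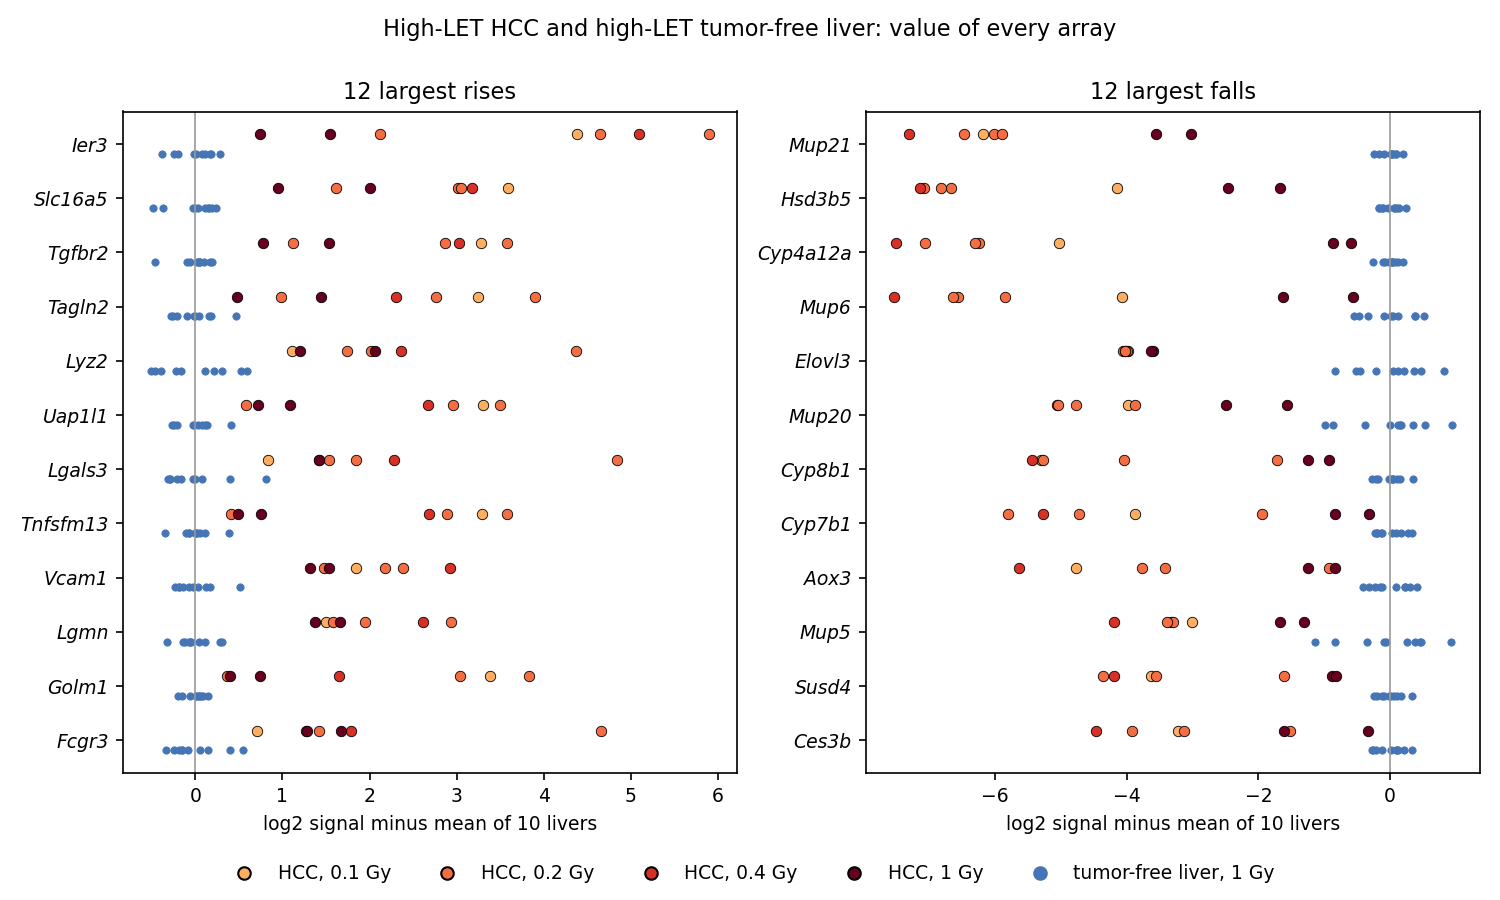
Log2 signal of every array minus the mean of the 10 high-LET livers (x axis) for the 12 largest rises (left) and 12 largest falls (right) in which HCC and livers did not overlap. Larger outlined points are HCC, colored by dose, and small blue points are livers. For Ier3 the 7 HCC are spread with values between 7.96 and 13.11, and for Elovl3 they lie at or near the floor of the scale, where 2 of the 7 are above background.

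Male-biased liver genes made up much of the list of falls. Of 15 measured, 12 fell and none rose, with a median difference of -2.61, against -0.01 over all genes. In 10 of the 12 the groups did not overlap. Over all genes 6.15% fell and 2.29% had groups that did not overlap. Beyond the genes above, Cyp4a12b differed by -2.33 ± 0.17 with 2 of 7 HCC above background (-1.82 to -5.10 over the alternative settings), Obp2a, an odorant-binding protein, by -2.61, Keg1 by -1.65, Cyp2d9 by -1.32 and Gstp1, a glutathione transferase, by -1.01. The median over the 15 genes was -3.24 in the 0.1 Gy HCC, -2.85, -3.19 and -2.41 in the 0.2 Gy HCC, -2.79 in the 0.4 Gy HCC and -0.87 and -0.83 in the 1 Gy HCC. It stayed between -0.18 and 0.23 in the 10 livers, so that every HCC lay below every liver.

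Female-biased liver genes changed the other way. Of 11 measured, 7 rose and none fell, with a median of 1.39. Cyp2b9, a cytochrome P450 of the female liver, read 12.05 at 0.1 Gy, 11.84, 10.29 and 12.51 at 0.2 Gy, 10.91 at 0.4 Gy and 9.95 and 6.68 at 1 Gy in HCC, against 5.94 to 7.08 in livers, and rose by 4.28 ± 0.47 (adjusted p = 6.06e-07). Here 6 of the 7 HCC lay above all livers and HCC 7 lay among them. Cyp2a4, a steroid 15α-hydroxylase, rose by 3.59 ± 0.48, Cyp2b13 by 2.59 ± 0.48 and Cyp17a1, the steroid 17α-hydroxylase, by 2.64 ± 0.75. Abcd2, a peroxisomal transporter of fatty acids, rose by 1.22 ± 0.21 and Cux2, a transcriptional repressor of male-biased genes, by 1.39, both with no overlap. A1bg was not above background in any liver and was at least 4.73-fold higher in HCC, meaning the HCC mean against the lowest level an array could tell from background. That rise rested on few tumors, since A1bg read 14.71 in HCC 5, 10.60 in HCC 4 and 7.44 or less in the others. Without HCC 5 its difference was 1.33 with an adjusted p of 0.221.

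Because STAT5 binds TTCNNNGAA and AP-1 binds TGANTCA, the promoters of the changed genes were searched for these letters on both strands, from 250 bases before to 50 bases after the start in the RefSeq promoters of GRCm38.p6. The STAT5 letters were present in 1 of 7 promoters of male-biased genes that fell and in 1 of 5 promoters of female-biased genes that rose. They were present in 7.11% of the 956 promoters of all genes called lower, 6.60% of the 848 of all genes called higher and 8.47% of all 27025 promoters. The AP-1 letters were present in none of the 9 promoters available for the 12 largest rises, in 7.90% of those of all genes called higher and in 7.93% of all promoters. The matches among the sex-biased genes are listed with the motif in capitals and 10 bases on each side, read 5′ to 3′ on the strand of the gene. Those of Keg1 lay at chr19:12695607-12695635 and chr19:12695673-12695701 (plus strand), that of A1bg at chr15:60921336-60921364 (minus strand) and that of Gstp1, an AP-1 match, at chr19:4037970-4037996 (minus strand).
Keg1, STAT5 letters, distal: attgtcatttTTCTGTGAAacacatttgt
Keg1, STAT5 letters, proximal: ttttcccattTTCTAGGAAaaaaaaaaaa
A1bg, STAT5 letters: tgcccctaccTTCCAGGAAgggcaaacaa
Gstp1, AP-1 letters: tccaacgtgtTGAGTCAgcatccgggg
A match is a stretch of letters and not a measured site, and binding was not measured.

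The growth hormone axis itself split in both directions, with 5 genes higher and 5 lower of 14 and a median of 0.06. Among those that rose were inhibitors of cytokine signaling: Cish by 2.46 ± 0.56, Socs3 by 1.84 ± 0.35 and Socs2 by 1.71, along with Igfbp1, an IGF-binding protein, by 1.16 and the kinase Jak2 by 0.40. Among those that fell were Ghr, the growth hormone receptor, at -1.31 ± 0.25, Igfals, which stabilizes IGF1 in plasma, at -1.36, the repressor Bcl6 at -1.18, Igf1 at -0.61 ± 0.14 and Stat5a at -0.45. Ghr read 9.63 to 11.999 in HCC and 11.70 to 12.36 in livers, and 5 of the 7 HCC lay below every liver. Cish read 8.57 to 11.27 in HCC against 6.52 to 10.14 in livers, where the highest liver lay within the HCC, and its difference was 0.13 (adjusted p = 0.956) when the sham-irradiated livers were the baseline.

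Of 18 oncofetal and tumor marker genes, 10 rose and none fell, with a median of 1.39. Lcn2, a secreted iron-siderophore binding protein, had the largest difference of these, 5.28 ± 0.60 (adjusted p = 9.29e-07). It read 13.38 at 0.1 Gy, 14.22, 15.18 and 12.87 at 0.2 Gy, 14.92 at 0.4 Gy and 11.24 and 14.41 at 1 Gy in HCC, against 7.54 to 11.80 (median 8.18) in livers. The overlap came from liver 5, which stood apart from the other 9. Gpc3, an oncofetal proteoglycan, rose by 3.04, Spink1, a trypsin inhibitor, by 2.85 ± 0.69, Anxa2, a calcium-binding membrane protein, by 2.10 ± 0.36 and Golm1, a Golgi membrane protein, by 1.92 ± 0.35. Afp, α-fetoprotein, differed by 0.84 and was not called. These markers separated the tumors: the median over the 18 genes was 2.22 in the 0.1 Gy HCC, 2.07, 3.56 and 0.04 in the 0.2 Gy HCC, 1.12 in the 0.4 Gy HCC and 0.19 and -0.03 in the 1 Gy HCC, and between -0.14 and 0.09 in livers.

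Genes of AP-1 and EGF receptor signaling rose in 9 of 20 cases and fell in 1, with a median of 0.55. Besides Ier3, the AP-1 subunits Junb (1.45 ± 0.33), Fosl2 (1.25 ± 0.32), Jun (1.07) and Fos (0.97) and the ERK phosphatase Dusp6 (0.93 ± 0.24) rose, whereas Egfr, the receptor itself, fell by 1.21 on the log2 scale. Fosl2 read 10.45 in HCC 3 and 9.51 in HCC 4 and at most 7.83 in the other HCC, against 6.63 to 7.12 in livers. Of 26 cell cycle genes 3 were called, near the share of 11.8% over all genes, and 0 to 8 rose over the alternative settings. The 3 that rose were the replication helicase subunits Mcm2 by 0.38 ± 0.12 and Mcm5 by 0.44 and the mitotic gene Birc5 by 0.43, and the difference of Mcm2 was 0.25 without HCC 1 and no longer called (adjusted p = 0.125). Of 16 p53 targets 1 rose and 1 fell, a share called near that over all genes. Phlda3 rose by 0.65 ± 0.23 and Bbc3, a mediator of apoptosis, differed by -0.73 ± 0.26. Both calls were lost when single arrays were left out, that of Phlda3 without HCC 2 or HCC 3 (adjusted p = 0.206 and 0.170).

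Bile acid synthesis fell in 7 of 12 genes and rose in none, with a median of -0.83. Cyp8b1 read 8.79 at 0.1 Gy, 8.81, 10.04 and 12.37 at 0.2 Gy, 8.65 at 0.4 Gy and 12.84 and 13.16 at 1 Gy in HCC, against 13.81 to 14.44 in livers. Hsd3b7, which acts on the sterol ring, differed by -1.16 ± 0.17 with no overlap, and Hsd17b4, a peroxisomal side-chain enzyme, by -0.67 ± 0.12. Of the transporters, Slco1b2, which takes up organic anions, differed by -1.56 ± 0.46, Abcb11, the bile salt export pump, by -1.46 ± 0.25 and Slc10a1, the bile salt uptake carrier, by -0.54 ± 0.14. The export pump Abcc4 rose by 0.49 ± 0.14, to 7.66 in HCC 5 and 6.29 to 6.82 in the other HCC against 6.02 to 6.39 in livers, and without HCC 5 its difference was 0.32, under the fold that counts as called.

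Cytochromes P450 of drug metabolism fell in 9 of 21 cases and rose in 2, with a median of -0.55. Cyp1a2, a caffeine-metabolizing enzyme of pericentral hepatocytes, differed by -2.57 ± 0.64 and Cyp2f2, of periportal hepatocytes, by -2.39 ± 0.33. Cyp2f2 read 10.34 to 13.65 in HCC and 13.94 to 14.40 in livers and did not overlap. Cyp2a5, the mouse coumarin hydroxylase, rose by 1.33 ± 0.23 and Cyp2c39 by 2.08. Among pericentral β-catenin targets 2 of 15 fell, Cyp1a2 and the transcription factor Tbx3, while glutamine synthetase Glul differed by -0.13 and was not called. The median of these 15 was -0.40, the share called was near that over all genes, and 7 fell when the BeadChip was a term of the fit. Among periportal and urea cycle genes 3 of 9 fell, Cyp2f2, the argininosuccinate synthase Ass1 (-0.68 ± 0.19, and -0.45 without HCC 3) and the histidase Hal. Their median of -0.28 became 0.03 when the BeadChip was a term of the fit.

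In lipid and sugar metabolism the called changes were mostly falls of moderate size. Fatty acid synthesis fell in 5 of 15 genes. Among these were the malic enzyme Me1 (-1.18 ± 0.23) and the elongases Elovl6 (-1.04) and Elovl5 (-0.85 ± 0.17). The call of Elovl6 was lost without HCC 3 or HCC 4 (limma adjusted p = 0.106 and 0.114). Cholesterol synthesis fell in 7 of 17, led by Sc5d, a sterol desaturase, which read 6.30 to 8.03 in HCC and 8.21 to 9.29 in livers (-1.48 ± 0.22). Fatty acid oxidation fell in 7 of 15 and rose in 1, with Cpt2, the mitochondrial carnitine acyltransferase, at -0.92 ± 0.19. These counts depended on the scaling: with arrays scaled to a common median 1 gene of each of the last 2 lists fell, and over all settings 1 to 9 and 1 to 8. G6pc, the glucose-6-phosphatase that releases glucose from the liver, differed by -2.11 ± 0.48, whereas 5 of 17 glycolysis and gluconeogenesis genes rose. Of these, Pkm, pyruvate kinase M, rose by 1.195 ± 0.36 and Pfkp, phosphofructokinase of platelets, by 1.05 ± 0.29, and both were carried by HCC 3, without which they differed by 0.71 and 0.67. Slc2a2, the glucose transporter of hepatocytes, rose by 0.71 ± 0.15. Of 18 NRF2 targets 2 rose and 3 fell, against 5.64% higher and 6.15% lower over all genes. The rise of Hmox1, heme oxygenase, by 1.01 ± 0.26 was 0.64 without HCC 3.

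Plasma proteins changed unevenly. None of 14 hepatocyte secreted proteins such as transthyretin and apolipoproteins was called, and their median was -0.05. Of these, Apoa1, Trf and Ahsg read 14.70 to 15.26 in HCC and livers, near the ceiling. Fgb was above background in 4 HCC and 5 livers only. Probes at either end of the scale can hide a difference. Of 14 hepatocyte transcription factors 2 rose, a share near the 11.8% called over all genes. These were Cebpb by 0.87 ± 0.22 and Foxa3 by 0.48 ± 0.18. The call of Foxa3 was lost in 13 of the 17 fits that left out 1 array. Of 21 acute-phase genes 9 rose and 1 fell, with a median of 0.52. The metallothioneins led these: Mt1 rose by 2.70 ± 0.51 and Mt2 by 2.18 ± 0.26, while the iron hormone Hamp fell by 1.43 on the log2 scale. The protease inhibitor Serpina3n rose by 0.96 ± 0.16 and Itih3 by 0.52 ± 0.10. Complement fell in 9 of 15 genes and rose in none, with a median of -0.54. The components of the membrane attack complex C6 (-1.77 ± 0.32), C9 (-1.39 ± 0.23) and C8b (-1.38 ± 0.18) had the largest falls, and Masp2, a protease of the lectin pathway, differed by -0.66 ± 0.12 with no overlap. C8b read 11.04 to 12.74 in HCC and 12.67 to 13.06 in livers, so that 1 HCC reached the lowest livers. Of 18 coagulation genes 2 fell, near the share over all genes, the kallikrein Klkb1 at -0.80 ± 0.17 and factor XI, F11, at -0.49 ± 0.16. The call of F11 was lost without HCC 6 or HCC 7 (adjusted p = 0.105 and 0.108), and with the BeadChip in the fit its difference was -0.23 (adjusted p = 0.491). Of 13 iron handling genes, Id1 rose and Hamp fell, a share called near that over all genes. The call of Id1 was lost without HCC 1, 2, 3 or 4 or without liver 4 or 6 (adjusted p up to 0.227).

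Markers of myeloid cells differed between the groups. Of 17 Kupffer cell and macrophage markers 9 rose and none fell, and their mean level was 7.34 to 8.22 (median 8.15) in HCC and 7.15 to 7.63 (median 7.32) in livers. Those that rose included the complement genes of macrophages C1qa (0.92), C1qb (1.36) and C1qc (1.35), Gpnmb (1.49), Vsig4 (1.00) and Csf1r (0.82), the receptor for the macrophage growth factor. Gpnmb read 10.67 in HCC 3, 9.39 in HCC 4 and 7.77 in HCC 2, but 6.19 to 6.56 in the other HCC, against 5.95 to 6.23 in livers. Clec4f, which marks resident Kupffer cells, differed by -0.16 and was not called, with 7.214 to 10.998 in HCC and 9.05 to 10.47 in livers. Of 8 neutrophil markers 3 rose, S100a8 (2.46), S100a9 (1.82) and Retnlg (1.42), and none was called with the BeadChip as a fixed term. S100a8 read 14.30 in HCC 3 and 8.26 to 10.81 in the other 6 HCC, against 6.55 to 8.75 in livers. Retnlg read 11.92 in HCC 3, 8.35 in HCC 4 and 6.23 to 6.85 in the other HCC, against 5.87 to 6.42 in livers. The single markers named here and in the cell type lists that follow were chosen after their values were seen.

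In endothelial markers 4 of 14 rose, among them Pecam1 (0.74) and Lyve1 (0.82), against 5.64% of all genes. Lyve1 read 8.57 in HCC 3, 8.27 in HCC 4 and 5.99 to 7.08 in the other HCC, against 5.82 to 6.83 in livers. In stellate cell and fibroblast markers 2 of 15 rose, Sparc (1.55) and Timp1 (1.35), a share near the 11.8% called over all genes. Timp1 read 12.33 in HCC 3, 6.30 to 7.66 in the other HCC and 6.02 to 6.36 in livers. Cholangiocyte markers rose in 2 of 8 (Tspan8 and Krt23), B and plasma cell markers in 1 of 5 (Blnk) and NK markers in 0 of 6. Tspan8 read 9.57 to 11.36 in HCC 1 to 4 and 5.99 to 6.54 in HCC 5 to 7, against 5.91 to 6.24 in livers. Krt23 read 6.11 to 7.16 in HCC 5 to 7, against 6.23 to 7.36 in livers. The cholangiocyte marker Sox9 went the other way and was not called, with a median of 8.37 in HCC and 9.22 in livers. In T cell markers 1 of 8 fell (Cd8b1, -1.08), a share called near the 11.8% over all genes. In pancreatic acinar markers 1 of 6 fell (Cela1, -0.92) and in adipocyte markers none of 4, against 6.15% of all genes. The median difference was 0.05 over the T cell and -0.01 over the acinar markers. Cd8b1 read 9.79 to 11.06 in livers, where Cd3d, Cd3e and Cd3g read at most 6.34, 6.29 and 6.36. Cela1 read 10.22 to 11.30 and Amy2a5 12.79 to 13.34 in livers, but Cpa1, Prss2 and Cel were each above background in at most 1 liver. Whether the Cd8b1 and Cela1 probes follow these cell types was not tested. The 3 erythroid genes measured did not move together. Alas2 read 8.78 to 11.28 in HCC and 11.41 to 12.04 in livers and fell without overlap by 1.74 on the log2 scale, Hba-a1 rose by 0.65 (adjusted p = 0.0668), and Slc4a1 differed by 0.82 and was not called. The mean level of the hepatocyte markers overlapped between HCC and livers. The part of these cells in the gene changes above was not tested.

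Antigen presentation through MHC class II rose in 4 of 7 genes, with a median of 0.70. Cd74, the invariant chain, rose by 1.18 ± 0.33 and H2-Eb1 by 1.21 ± 0.32. H2-Eb1 read 8.37 to 10.27 in HCC and 7.29 to 9.42 in livers. The groups overlapped because liver 5 and liver 9 stood above the other 8 livers, with list medians of 1.31 and 0.65. At least 4 genes of the list were called with any 1 liver left out, but without HCC 3 only 2, as H2-DMa and H2-DMb1 were lost (adjusted p = 0.169 and 0.136). Over the settings that changed the processing or the baseline, 1 to 5 genes of the list rose. Of 23 interferon and class I processing genes 5 rose and 1 fell, against 5.64% higher and 6.15% lower over all genes. Gbp2, an interferon-induced GTPase, rose by 0.95 ± 0.18 and Psmb8, a subunit of the immunoproteasome, by 1.14 ± 0.30.

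**Figure D2:**
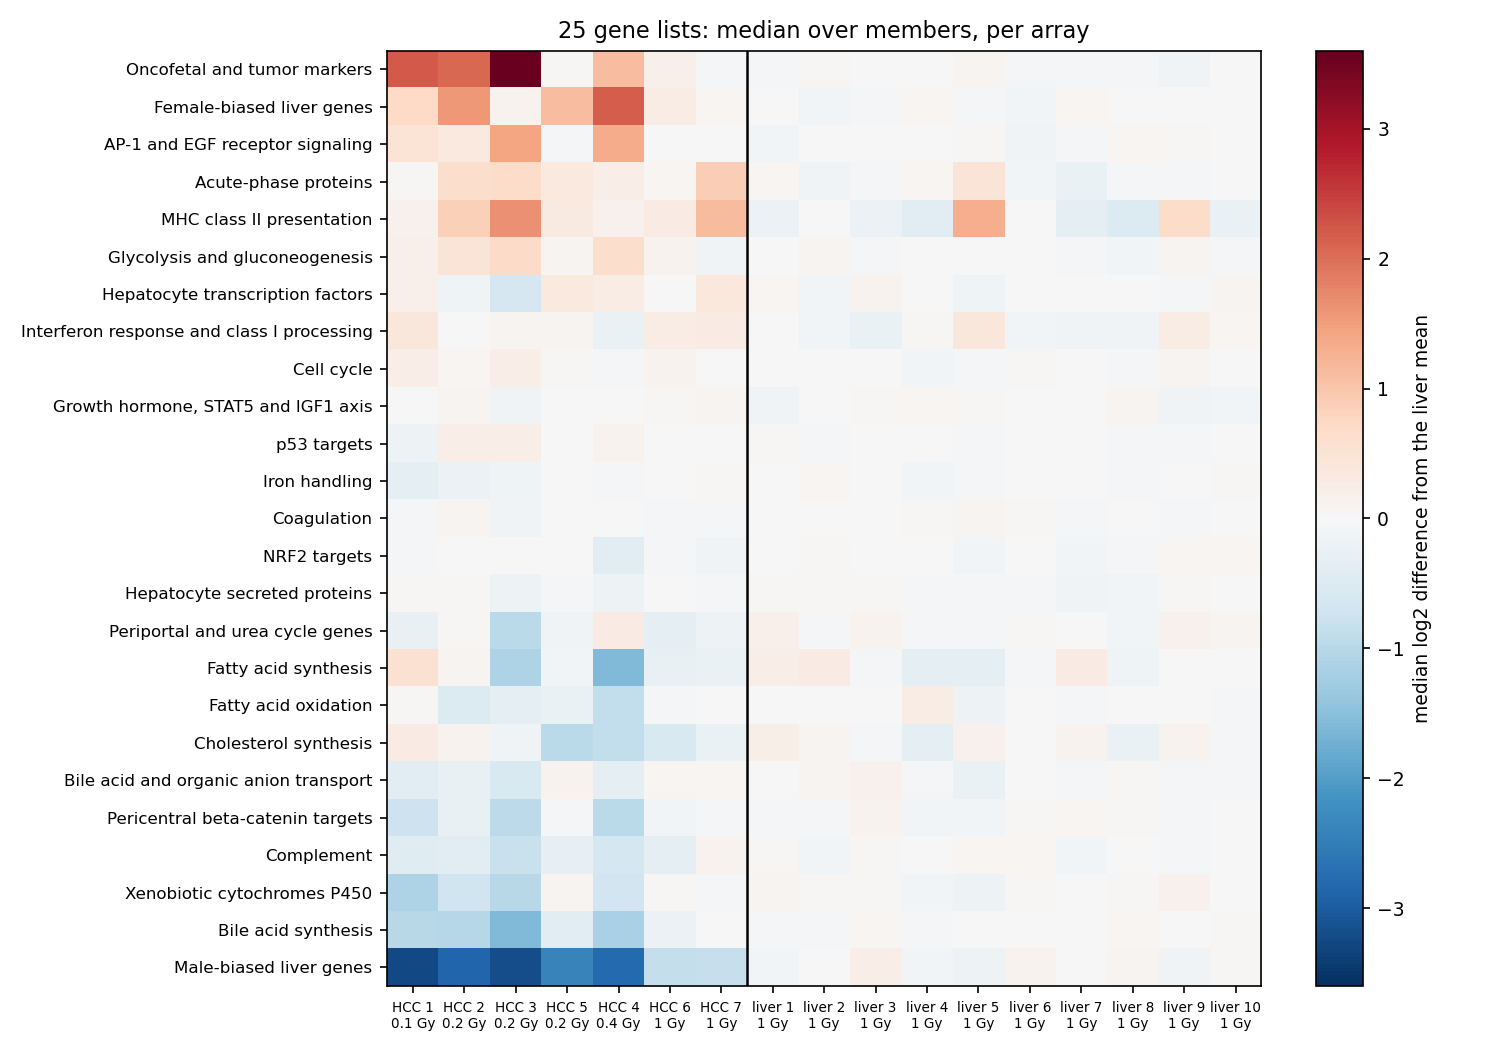
Median over the members of 25 gene lists of the log2 difference from the mean of the 10 high-LET livers (color), for each HCC (left, by dose) and each liver (right). The male-biased list was at -0.83 or lower in every HCC and between -0.18 and 0.23 in livers, while oncofetal markers ran between -0.03 and 3.56 over the HCC.

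The tumors differed from each other far more than the livers did. Over the called genes the median SD was 0.477 among the 7 HCC and 0.167 among the 10 livers, and 2121 of 2246 called genes (94.4%) had the larger SD in HCC. Over all 19047 genes the medians were 0.131 in HCC and 0.103 in livers, and 68.6% had the larger SD in HCC. Since a gene can pass the test with a large change in some tumors only, the called genes were also counted by the number of HCC beyond the liver range: 399 were beyond it in all 7, 557 in 6, 583 in 5, 490 in 4, 166 in 3, 42 in 2, 8 in 1 and 1 in none.

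The distance of each tumor from the livers varied severalfold. The number of probes more than 1.3-fold outside the range of the 10 livers was 3754 in the 0.1 Gy HCC, 2645, 5415 and 1165 in the 0.2 Gy HCC, 4222 in the 0.4 Gy HCC and 931 and 920 in the 1 Gy HCC. A liver set against the other 9 had 3 to 168 such probes, so that the tumor nearest to the livers was still well outside their own spread. Of the called genes, HCC 3 exceeded the liver range in 91.4%, HCC 4 in 86.6%, HCC 2 in 84.1% and HCC 1 in 74.4%, compared with 61.7% in HCC 6, 60.6% in HCC 5 and 57.6% in HCC 7. A liver set against the other 9 did so in 2.49% to 21.4%. The same HCC and livers served to call these genes, so high shares in HCC were built in.

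**Figure D3:**
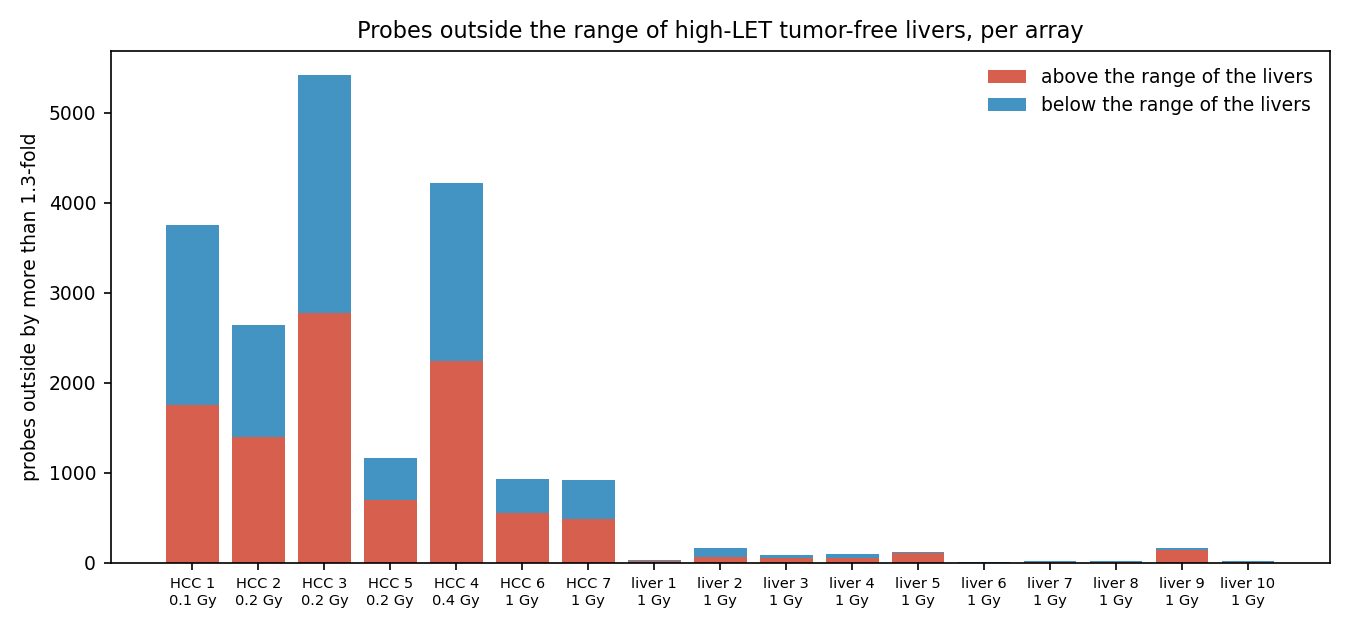
Number of probes per array that lay more than 1.3-fold above (red) or below (blue) the range of the high-LET livers, with each liver set against the other 9. HCC 3, at 0.2 Gy, has the tallest bar with 5415 probes and the 2 HCC at 1 Gy the shortest among tumors with 931 and 920, against at most 168 in a liver.

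The tumors were also placed on a measure that used no high-LET array. Probes were chosen by the difference between spontaneous HCC and sham-irradiated livers, fitted on the 17 arrays without high-LET exposure, 2244 higher and 2215 lower. The median difference of the higher set from the high-LET livers was 0.57 in HCC 1, 0.55 in HCC 2, 0.65 in HCC 3 and 0.60 in HCC 4, but 0.10 in HCC 5, 0.15 in HCC 6 and 0.08 in HCC 7. For the lower set it was -0.52, -0.54, -0.80 and -0.69 in HCC 1 to 4 and -0.18, -0.20 and -0.11 in HCC 5 to 7. HCC 5 was exposed to 0.2 Gy, as were HCC 2 and HCC 3, so tumors of 1 dose lay on both ends of this range.

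Single genes showed how far tumors could part. Mup2 had the largest SD among HCC, 3.51, against 0.09 in livers. It read 13.14 at 0.1 Gy, 9.19, 7.90 and 12.25 at 0.2 Gy, 6.22 at 0.4 Gy and 15.21 and 14.84 at 1 Gy, against 14.81 to 15.07 in livers, so that both 1 Gy HCC were at liver level. Akr1c18, which inactivates progesterone, was at least 6.30-fold higher in HCC, read 9.26 to 11.77 in HCC 1 to 4 and 5.70 to 6.24 in HCC 5 to 7, and was above background in no liver. Spink1 followed the same division, with 10.46 to 12.87 in HCC 1 to 4 and 6.04 to 6.62 in HCC 5 to 7 against 6.19 to 6.59 in livers. Ccl4, a chemokine, read 14.06 in HCC 3 and 6.85 to 7.91 in the others against 6.24 to 6.96 in livers. Its difference of 1.67 (adjusted p = 0.0718) was 0.69 without HCC 3 (adjusted p = 0.0351).

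**Figure D4:**
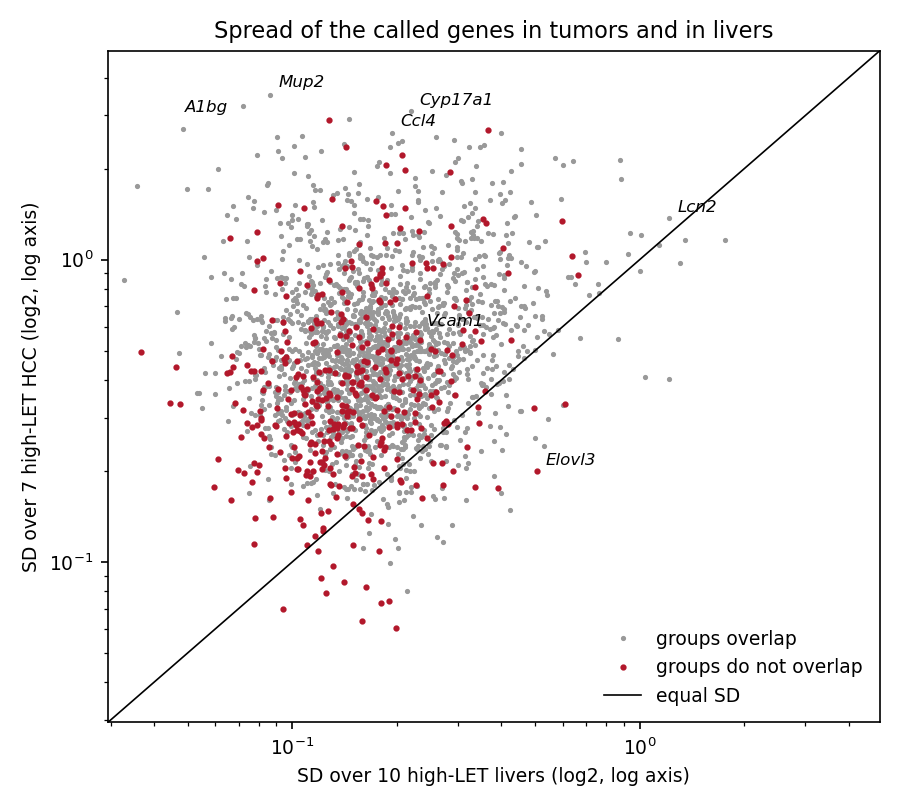
SD of each called gene over the 7 high-LET HCC (y axis) against its SD over the 10 high-LET livers (x axis), both of log2 signals on log axes. Of 2246 points 2121 lie above the line of equal SD. Red points are genes whose groups did not overlap, and Elovl3, at 0.20 in HCC, where it lies at or near the floor of the scale, and 0.51 in livers, is among those below the line.

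The labels allowed the tumors to be divided by dose, 2 HCC at 1 Gy against 5 at 0.1 to 0.4 Gy. Between them 649 probes (1.44%) and 428 genes (2.25%) were called, 236 genes higher at 1 Gy (1.24%) and 192 lower (1.01%). This contrast was fragile. It left 61 probes without HCC 7, 128 without HCC 6, 395 to 420 without HCC 1, 2 or 3 and 2489 without HCC 5, and 1 probe when only the arrays compared were fitted and the spread was not shared with the other groups. Scaled to a common median, it gave 1503 probes, 1389 higher and 114 lower, against 353 higher and 296 lower. The ion may have differed between the doses, which cannot be told apart from dose here.

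The 8 genes with the smallest p in the dose contrast were sex-biased enzymes and urinary proteins and a sulfotransferase. Cyp4a12a read 12.65 and 12.92 in the 1 Gy HCC, against 8.48, 6.44, 7.27, 7.21 and 6.01 in the HCC at 0.1 to 0.4 Gy. The difference was 5.70 (limma adjusted p = 2.80e-08), and livers read 13.25 to 13.71. Mup6 was 5.04 higher at 1 Gy, Hsd3b5 4.31, Sult2a8 4.19 and Mup21 3.09. For Sult2a8, a sulfotransferase of bile acids, the 1 Gy HCC read 11.25 and 11.55 and the others 5.87 to 9.75, and the livers, at 10.69 to 11.80, held both 1 Gy values. Cyp2a4 differed by -3.95, with 7.64 and 6.22 at 1 Gy against 11.81, 11.74, 11.04, 9.08 and 10.75 at 0.1 to 0.4 Gy, Cyp2b13 by -3.48 and Cyp2b23 by -2.42. No value of a 1 Gy HCC overlapped those of the other HCC in these genes. They were chosen by this same contrast, so that lack of overlap adds no support. None of the 8 was called when only the arrays compared were fitted.

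**Figure D5:**
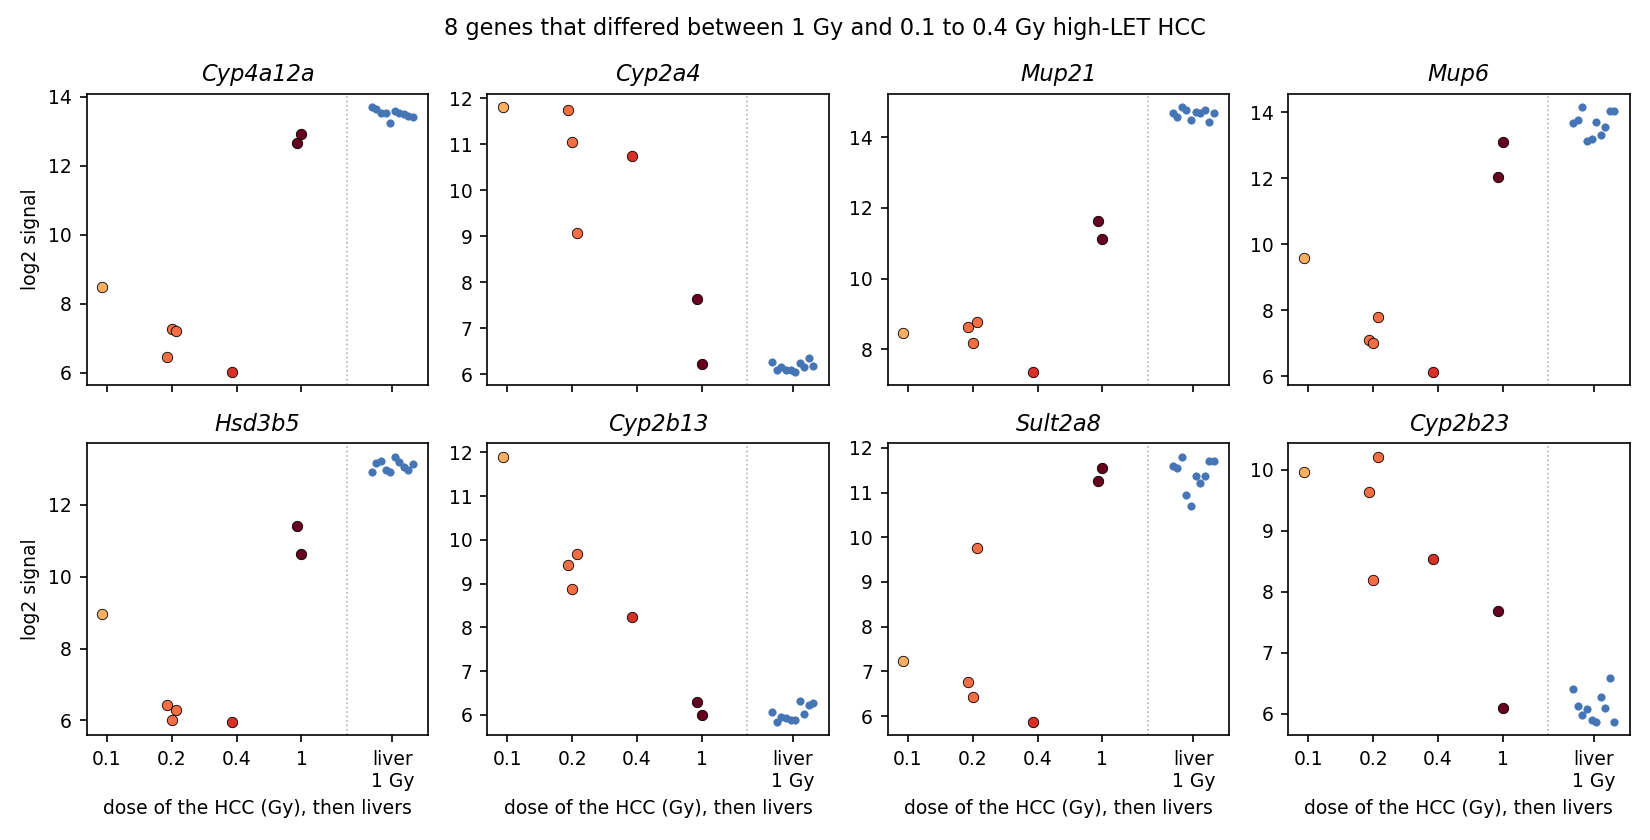
Log2 signal (y axis) of 8 genes in each HCC by dose in Gy and in each high-LET liver (right of the dotted line). For Sult2a8 and Cyp2b13 the 1 Gy HCC lie within the range of the livers, whereas Mup21 at 11.64 and 11.11 stays below the lowest liver at 14.43.

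By list, 8 of 15 male-biased genes were higher at 1 Gy and none lower, 6 of 12 bile acid synthesis genes were higher, 7 of 18 oncofetal markers were lower and 3 of 11 female-biased genes were lower, against 1.24% of all genes higher and 1.01% lower. These counts rest on 2 arrays at 1 Gy and on the contrast that left 1 probe when only the arrays compared were fitted. The dose groups were also each set against the same 10 livers. At 1 Gy 319 probes and 205 genes (1.08%) differed from livers, with 120 probes higher and 199 lower, and at 0.1 to 0.4 Gy 4616 probes (10.2%) and 2838 genes (14.9%). The first count rested on 2 arrays and was 40 without HCC 6 and 70 without HCC 7. Scaled to a common median it was 1320, with 1295 higher and 25 lower. Elovl3 differed from livers by -3.62 at 1 Gy and -4.02 at 0.1 to 0.4 Gy, Mup21 by -3.29 and -6.38, Mup20 by -2.03 and -4.55, Vcam1 by 1.43 and 2.16 and Lcn2 by 4.36 and 5.64, all called in both. Cyp4a12a differed by -0.73 at 1 Gy (adjusted p = 0.649) and -6.43 at 0.1 to 0.4 Gy, and Ier3 by 1.15 (adjusted p = 0.404) and 4.43.

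The tumor change under high-LET exposure was next compared with the change of spontaneous HCC against sham-irradiated livers and of low-LET HCC against low-LET livers. The high-LET change differed from the spontaneous change in 85 probes, 6 higher and 79 lower, and in 56 genes (0.294%), 4 higher (0.021%) and 52 lower (0.273%). Of the 8 genes with the smallest p, 7 were not called in high-LET HCC against livers. Dlx3, a homeobox gene, differed by 0.02 in high-LET HCC and 0.76 in spontaneous HCC, a difference of -0.74 (adjusted p = 0.00328). Ica1 differed by 0.27 and 1.76 (-1.49, adjusted p = 0.00541) and Aldh1l2, a mitochondrial folate enzyme, by 0.12 and 1.02. Akr1b10, an aldo-keto reductase, rose in high-LET HCC by 0.72 and in spontaneous HCC by 1.68. The count was 540 without HCC 1, 301 without HCC 2, 217 without HCC 3, 304 without HCC 4 and 51 without HCC 5. With the BeadChip in the fit 4 probes remained.

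Against the low-LET change 7 probes (0.0155%) and 5 genes (0.0263%) differed, 1 gene higher (0.00525%) and 4 lower (0.021%). Wfdc17, an anti-inflammatory protein of activated macrophages, was the only one higher under high-LET exposure. It rose by 1.53 in high-LET HCC, at 7.96 to 9.33 in HCC and 6.84 to 7.68 in livers, and differed by -0.32 in low-LET HCC, a difference of 1.85 (adjusted p = 0.0451). Cst6, Dlx3, Agfg1 and Gria3 were lower, with differences of -0.65, -0.72, -1.203 and -0.999. With 3 low-LET HCC the count was unstable, at 149 without HCC 1, 74 without HCC 2, 54 without HCC 3, 11 without HCC 5, 4 without HCC 7 and 1 with the BeadChip in the fit, and at an unadjusted p under 0.05 there were 4130 probes.

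The baseline itself was set against untreated liver. Between the 10 high-LET livers and the 6 sham-irradiated livers limma called 0 probes (0%), with 1505 at an unadjusted p under 0.05, and the count was 0 under each of the 21 alternatives run. With sham livers as the baseline 3056 probes were called in high-LET HCC, 2773 of them among the 3653 called against high-LET livers, and with all 20 tumor-free livers 3788. BeadChip and tumor status were partly mixed. Only BeadChips 3, 7 and 8 held both groups, with 1 HCC (HCC 1, 4 and 2) and 2 high-LET livers each. With the BeadChip as a fixed term 3313 probes were called, 2779 of them among the 3653.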

How the data were processed

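Liver and tumor RNA of 34 mice was measured on 8 Illumina BeadChips. The authors summarized the beads and deposited non-normalized intensity values (linear, background not removed), and separately log2 values that they had background-subtracted and quantile normalized. The deposited log2 values were used only as an alternative. Detection calls and control beads were not used here.

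The intensity values were background-corrected with normexp (offset 50) and quantile normalized in limma 3.58.1 (R 4.3.3). A dim line was set on each array at the median of its dimmest 25%, and a probe was kept if it passed this line on 3 or more arrays, which left 45219 of 45281. The background limit was separate from the dim line. A probe was above background when its log2 intensity exceeded the mode (most frequent value) of its array by 1.645 times an SD. That SD was reflected from the values below the mode. Of the probes, 34885 had 1 gene in the platform annotation, 18 had several and 10378 had none. For a gene with several probes the one with the highest mean signal was read. Of 2513 genes with a called probe, 6 had called probes in both directions.

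One linear model with 6 group means over 34 arrays (7 means for the dose contrasts) was fitted with lmFit and eBayes, with p-values adjusted over all probes (Benjamini-Hochberg). Calls required an adjusted p under 0.1 and a fold above 1.3, the thresholds of the study's methods. The study's 2-way analysis of variance was replaced by these group means. Groups came from the sample labels. Replicate numbers only name arrays and pair nothing. The SE and p-values rest on a spread between mice that is shared by all groups. Of the called genes 94.4% had the larger SD in HCC than in livers. The SE and p-values can therefore understate the uncertainty of the tumor means. The named genes were the 12 rises and 12 falls of greatest size among called genes without overlap between the groups, the 8 called genes with the largest SD among tumors, up to 8 genes per further contrast and up to 4 genes per list with the smallest adjusted p. Other members of a list were named after their values were seen. The gene lists and the comparison were chosen with earlier results of these data known. The fit was tested on simulated data with independent normal noise and the same spread in every group. That simulation held no BeadChip effect and no larger spread in HCC, so it cannot speak to either. Alternatives changed the values used, the background correction, the normalization, the filter, the BeadChip term, the arrays fitted, the weights, the moderation, the threshold and the arrays left out.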

Additional observations from a re-analysis of the deposited data

Results flagged for a closer look

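Extreme single values were looked for in 314 sets of values, each over the 7 high-LET HCC or the 10 high-LET livers. A value was picked when its gap to its neighbor was larger than Dixon's 95% limit allows, which chance does about 1 time in 20. There were 25 such values, 17 in HCC and 8 in livers. At that rate chance alone gives a large part of the 25, and in livers about as many as were found. The values below are therefore only listed.

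In HCC 3, at 0.2 Gy, Ccl4 (14.06), Lgals3 (13.002), Lyz2 (12.56) and Fcgr3 (12.15) stood above the other HCC, and Apoc3 (14.88) and Plg (13.43), which are secreted by hepatocytes, stood below them. In HCC 4, at 0.4 Gy, Bbc3 (10.11) and Nags (9.58) were high, Ephx1 (11.05) and Ebp (11.09) were low and the median of the NRF2 targets was -0.39. In HCC 6, at 1 Gy, both metallothioneins were low among the tumors, Mt1 at 14.00 and Mt2 at 6.68. HCC 2 was high in Akr1b10 (8.57) and Sidt1 (8.04), HCC 5 was high in Abcc4 (7.66) and HCC 7 was low in Abcd2 (6.51).

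Among the livers, liver 5 was high in Lcn2 (11.80) and Ccl4 (6.96) and in the median of the acute-phase genes (0.47). Liver 4 was high in Ech1 (13.47) and in the median of fatty acid oxidation (0.28). Liver 1 was low in Tgfbr2 (7.84), liver 2 was low in C9 (13.43) and liver 9 was high in Aurkb (6.12).

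Some differences between tumor types and between doses passed the test of the difference itself, but not under every setting. The log2 differences of the high-LET change from the spontaneous change were Sidt1 -2.18, Ica1 -1.49, Agfg1 -1.11, Akr1b10 -0.96, Aldh1l2 -0.90, Samd10 -0.79, Dlx3 -0.74 and Samd14 -0.68. Those from the low-LET change were Agfg1 -1.203, Gria3 -0.999, Dlx3 -0.72, Cst6 -0.65 and, in the other direction, Wfdc17 1.85. Probes for Agfg1 were called in opposite directions, so that its value depends on the probe. With the BeadChip as a fixed term, all of the first 8 but Dlx3 lost the call (adjusted p = 0.162 to 0.378), as did Dlx3, Agfg1, Wfdc17 and Gria3 against the low-LET change (0.187 to 0.563). Between HCC at 1 Gy and at 0.1 to 0.4 Gy the 8 differences were Cyp4a12a 5.70, Mup6 5.04, Hsd3b5 4.31, Sult2a8 4.19, Mup21 3.09, Cyp2b23 -2.42, Cyp2b13 -3.48 and Cyp2a4 -3.95, none of them called when only the arrays compared were fitted. The causes of these differences were not tested.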

How the results depend on the processing

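No paired analysis was possible because the replicate numbers only name arrays in accession order. The 3653 probes called between high-LET HCC and high-LET livers stayed within 1.5 times that count under all settings but 3: the authors' log2 values (6470), scaling to a common median (2294) and an adjusted p under 0.05 with a fold above 1.5 (1802). With the BeadChip as a fixed term 3313 were called, 2779 of them shared. Leaving out 1 HCC gave 2974 to 4059 probes and leaving out 1 liver 3451 to 3718. The other counts moved more. With the authors' values HCC at 0.1 to 0.4 Gy differed from livers in 7572 probes. Median scaling gave 19 probes against the spontaneous change, 2 against the low-LET change, 1503 between doses and 1320 for 1 Gy HCC against livers. The filter on 7 arrays gave 205 against the spontaneous change, 17 against the low-LET change and 519 for 1 Gy HCC. The BeadChip term gave 4 and 1 in the same contrasts, with 1029 between doses and 15 for 1 Gy HCC. Fitting only the arrays compared gave 249 and 13 there, with 1 between doses and 2205 for 1 Gy HCC. Array weights gave 242 against the spontaneous change, 1129 between doses and 1382 for 1 Gy HCC. Without moderation there were 4 against the low-LET change and 211 for 1 Gy HCC. The stricter threshold gave 41 and 4 there, 287 between doses, 87 for 1 Gy HCC and 2517 for HCC at 0.1 to 0.4 Gy. Without 1 HCC the counts were 51 to 540 against the spontaneous change, 4 to 149 against the low-LET change, 61 to 2489 between doses, 40 to 70 for 1 Gy HCC and 3814 to 5561 for the lower doses. Without 1 liver they were 58 to 119 against the spontaneous change, 5 to 8 against the low-LET change, 219 to 358 for 1 Gy HCC and 4449 to 4711 for the lower doses. The median of the periportal list, -0.278, was 0.032 with the BeadChip term. Of 132 named genes 103 were called in the main comparison, 28 of these lost the call under some setting, at most 19 under one, and none reversed. Genes near the background limit of an array have only a bound. The causes of these shifts were not tested.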
